A study of Arabidopsis thaliana with 14 samples.

Results

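The genes described here were chosen by their annotation: a gene belongs if its short description in the authors' table of changed genes holds the word kinase. Of the 1114 listed genes, 42 hold that word, 2 of these were set aside by the rule, and 40 were kept. They were measured in a fen1 mutant and in its control, the transgenic wild type (TWT), both in the C24 background of Arabidopsis thaliana, as whole untreated seedlings at 10 days on sucrose plates. FEN1 encodes flap endonuclease 1, which trims DNA flaps during replication and repair. The labels name neither the fen1 allele nor the transgene that TWT carries. RNA was sequenced from 2 libraries per genotype, and the authors gave 1 value per gene and genotype, in FPKM (fragments scaled to transcript length and library size). Histone marks were taken from 1 peak list each of TWT H3K27me3, H3K4me3 and H3K9me2, each from 1 library. The fen1 chromatin libraries were not analysed here, so the marks describe TWT alone and show no change in the mutant.

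Protein kinases add phosphate to other proteins and so pass signals on. Plants hold a very large family of receptor-like kinases, which span the plasma membrane, read ligands or the cell wall with an outer domain (leucine-rich repeats, lectin folds or cysteine-rich domains) and signal through an inner kinase domain. Other protein kinases lie inside the cell. Calcium-dependent protein kinases (CPK) carry their own calcium-binding domain, and CBL-interacting kinases (CIPK) are switched on by calcineurin B-like calcium sensors. The word kinase also names enzymes that phosphorylate small molecules such as nucleosides and sugars.

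By these descriptions the 40 genes fell into 20 receptor-like kinases, 7 other protein kinases, 3 calcium-linked kinases, 8 enzymes of small molecules and 2 proteins with no annotated kinase domain. The 7 other protein kinases have no receptor name in the annotation and were treated as cytoplasmic. Whether each one lacks a membrane span was not checked. Of the 40, 28 have a protein kinase domain in the authors' annotation. EP1 and AT3G46270 among the receptor-like genes have none.

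In fen1 seedlings 23 of the 40 genes were higher and 17 were lower than in TWT. The share of higher genes was 57.5% (exact Clopper-Pearson 95% interval 40.9 to 73.0%, which covers counting error only), beside 61.4% of all 1114 listed genes. The table lists a gene only if the authors' test called it at a q under 0.05. The p and q values imply 20132 tests in all, of which 5.53% gave a call, 3.40% as higher and 2.14% as lower. How many kinase genes were tested is not known, so no share of kinases called can be set against these values. The receptor-like genes had 10 higher and 10 lower. Without EP1 and AT3G46270, which have no annotated kinase domain, they had 10 higher and 8 lower. The other protein kinases had 3 higher and 4 lower, the calcium-linked kinases 3 higher and none lower, and the small-molecule enzymes 5 higher and 3 lower. These class counts are descriptions with no test, and with 3 genes the interval for the calcium-linked share reaches down to 29.2%.

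The changes were mostly small. In the authors' deposited table the median log2 fold change (fen1 over TWT) was 0.71 for the 23 higher kinase genes, against 0.95 for all 684 higher genes. For the 17 lower kinase genes it was −0.55 in the authors' deposited table, against −0.72 for all 430 lower genes. At least 2-fold changes were found for 9 higher and 6 lower kinase genes, together 37.5% of the 40, beside 41.0% of all 1114 listed genes, where a gene listed at 0 in 1 genotype counts as past 2-fold. Of all genes tested, 2.27% were listed with such a change, 1.61% as higher and 0.656% as lower. A q under 0.01 was reached by 14 higher and 6 lower kinase genes, together 50.0% of the 40, beside 67.1% of all listed genes. Of all genes tested, 3.71% reached it, 2.48% as higher and 1.23% as lower. Since the table has no value per library, no SD can be given. Where the authors' statistic is read as the log ratio over its standard error, the error implied for the log2 change is 0.20 to 0.89 over the 40 genes, with a median of 0.28. Errors given below are of this kind, and they may hold technical spread alone. In whole seedlings, fewer cells of a type and less RNA per cell cannot be told apart.

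**Figure D1:**
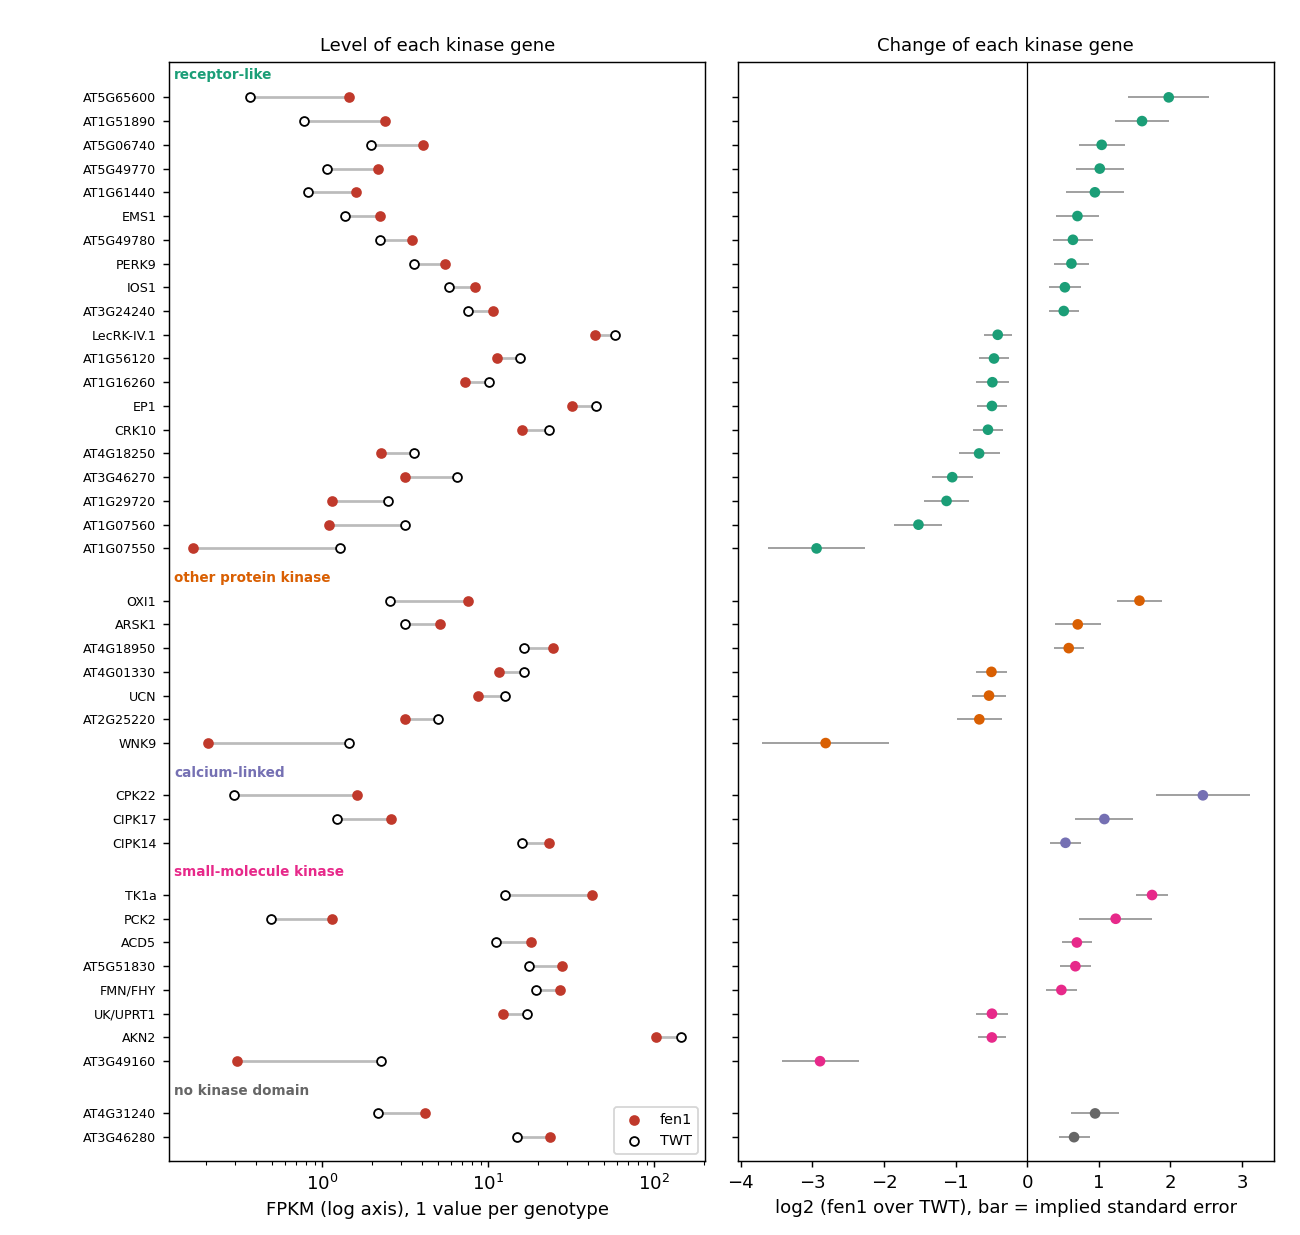
Each row is 1 of the 40 kinase genes, grouped by class. The left panel gives the FPKM level (log axis) in fen1 as filled points and in TWT as open points, and the right panel the log2 fold change of fen1 over TWT with the implied standard error as a bar. The 20 receptor-like genes divide into 10 higher and 10 lower, and all 3 calcium-linked genes lie right of 0.

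Among the 10 receptor-like genes that were higher, levels stayed low in both genotypes, from 1.46 to 10.7 FPKM in fen1 and from 0.37 to 7.52 FPKM in TWT. AT5G65600 encodes LecRK-IX.2, a lectin receptor kinase. It had 1.46 FPKM in fen1 and 0.37 FPKM in TWT. That is a log2 change of 1.98 (implied standard error 0.57, q = 0.00173) in the authors' deposited table, the largest rise of the class on the plain ratio. AT1G51890, a leucine-rich repeat kinase, had 2.38 FPKM in fen1 and 0.78 FPKM in TWT (log2 1.604, implied standard error 0.38, q = 0.00173 in the authors' deposited table). AT5G06740 encodes the lectin receptor kinase LecRK-S.5. It had 4.03 FPKM in fen1 and 1.96 FPKM in TWT, a log2 change of 1.04 with an implied standard error of 0.32 (q = 0.00173) in the authors' deposited table. AT5G49770, with leucine-rich repeats, had 2.16 FPKM in fen1 and 1.07 FPKM in TWT (log2 1.01, implied standard error 0.33, q = 0.00173 in the authors' deposited table). These 4 were the receptor-like genes that rose at least 2-fold, and each stood above 1 FPKM in fen1.

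The other 6 rises were smaller. AT1G61440, an S-locus lectin kinase, had 1.59 FPKM in fen1 and 0.83 FPKM in TWT (log2 0.95 in the authors' deposited table). EMS1, which sets cell fates in the anther, had 2.23 FPKM in fen1 and 1.37 FPKM in TWT (log2 0.70 in the authors' deposited table). AT5G49780, the neighbour of AT5G49770, had 3.46 FPKM in fen1 and 2.23 FPKM in TWT (log2 0.64 in the authors' deposited table). PERK9 belongs to the proline-rich extensin-like receptor kinases, whose outer part resembles a cell wall protein. It had 5.46 FPKM in fen1 and 3.56 FPKM in TWT (log2 0.62, q = 0.00943 in the authors' deposited table). IOS1, named for impaired oomycete susceptibility and known from immune signalling, had 8.35 FPKM in fen1 and 5.80 FPKM in TWT (log2 0.53, q = 0.0261 in the authors' deposited table). AT3G24240, with leucine-rich repeats, had 10.7 FPKM in fen1 and 7.52 FPKM in TWT (log2 0.51 in the authors' deposited table), the highest level of the 10.

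The 10 receptor-like genes that were lower held 5 of high level with small changes and 5 of low level with larger ones. The lectin kinase gene AT2G37710 encodes LecRK-IV.1, annotated as induced by salicylic acid. It was the most abundant receptor-like gene, with 43.8 FPKM in fen1 and 58.2 FPKM in TWT. Its log2 change of −0.41 (implied standard error 0.20, q = 0.0478 in the authors' deposited table) was the smallest of the 40 genes. EP1, also called CRK9, holds the cysteine-rich outer domain without a kinase domain and is likewise annotated as induced by salicylic acid. It had 31.8 FPKM in fen1 and 44.7 FPKM in TWT (log2 −0.49, q = 0.0235 in the authors' deposited table). CRK10, the cysteine-rich receptor-like kinase next to it, had 16.0 FPKM in fen1 and 23.4 FPKM in TWT (log2 −0.55, implied standard error 0.21, q = 0.00830 in the authors' deposited table). AT1G56120, with leucine-rich repeats and a malectin domain, had 11.3 FPKM in fen1 and 15.6 FPKM in TWT (log2 −0.46 in the authors' deposited table). AT1G16260, a wall-associated kinase, had 7.25 FPKM in fen1 and 10.2 FPKM in TWT (log2 −0.49, q = 0.0425 in the authors' deposited table). Wall-associated kinases bind pectin in the cell wall.

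Lower by larger factors were genes below 7 FPKM in TWT. AT1G07550, a leucine-rich repeat kinase, had 0.17 FPKM in fen1 and 1.29 FPKM in TWT. Its log2 change of −2.94 (implied standard error 0.68, q = 0.0106 in the authors' deposited table) was the largest fall of the 40 genes on the plain ratio. On the log2(FPKM + 1) scale it stood at −0.97, behind AT3G49160 (−1.32), WNK9 (−1.02) and AT1G07560 (−0.98). The adjacent leucine-rich repeat gene AT1G07560 had 1.102 FPKM in fen1 and 3.16 FPKM in TWT (log2 −1.52, implied standard error 0.34, q = 0.00173 in the authors' deposited table). AT1G29720, with a malectin domain, had 1.15 FPKM in fen1 and 2.51 FPKM in TWT (log2 −1.13, implied standard error 0.31 in the authors' deposited table). AT3G46270, described as related to receptor kinases, had 3.15 FPKM in fen1 and 6.51 FPKM in TWT (log2 −1.05, implied standard error 0.29, q = 0.00173 in the authors' deposited table). AT4G18250, whose outer part is annotated with a thaumatin domain, had 2.26 FPKM in fen1 and 3.60 FPKM in TWT (log2 −0.67, q = 0.0226 in the authors' deposited table).

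By outer domain, the 10 genes described by leucine-rich repeats had 6 higher and 4 lower. The 4 lectin kinases had 3 higher and 1 lower, and both cysteine-rich genes were lower. On the log2(FPKM + 1) scale, which damps low genes, AT5G65600 stood at 0.84, below AT1G51890 at 0.92. The order within the class therefore depends on that scale. Directions cannot change on it, since adding 1 to both values keeps their order.

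Receptor-like kinase genes often lie in tandem arrays of similar copies, and 4 pairs of the 40 genes lay within 20 kb of each other in TAIR10 coordinates. AT1G07550 and AT1G07560 lie 758 bp apart on chromosome 1 (2322653 to 2331096), on opposite strands, and both were lower. EP1 and CRK10 lie 1979 bp apart on chromosome 4 (12135093 to 12140921) on the same strand, and both were lower by nearly the same amount. AT5G49770 and AT5G49780 lie 1988 bp apart on chromosome 5 (20222669 to 20233095) on the same strand, and both were higher. AT3G46270 and AT3G46280 lie 1231 bp apart on chromosome 3 (17000641 to 17008424) on the same strand, and they moved in opposite directions. AT3G46280, described as kinase-related with no kinase domain annotated, had 23.6 FPKM in fen1 and 15.0 FPKM in TWT (log2 0.65, implied standard error 0.22, q = 0.00173 in the authors' deposited table). The annotation gives these last genes as each other's closest Arabidopsis match. The sources used here do not say how reads that match both copies were divided, so the values of such pairs are uncertain.

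Of the 7 other protein kinases, 3 were higher. OXI1 (AT3G25250, listed as AGC2-1) is an AGC kinase activated by oxidative signals and needed for root hair growth and defence. It had 7.61 FPKM in fen1 and 2.57 FPKM in TWT, the largest rise of this class (log2 1.57, implied standard error 0.31, q = 0.00173 in the authors' deposited table). ARSK1, a root-specific kinase, had 5.13 FPKM in fen1 and 3.15 FPKM in TWT (log2 0.71, implied standard error 0.32, q = 0.0414 in the authors' deposited table). AT4G18950, an integrin-linked kinase with ankyrin repeats, had 24.6 FPKM in fen1 and 16.4 FPKM in TWT (log2 0.58, implied standard error 0.21, q = 0.00593 in the authors' deposited table). OXI1 alone of these 3 changed at least 2-fold.

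The other 4 were lower. WNK9 belongs to the family named for lacking a usual lysine in the kinase domain. It had 0.21 FPKM in fen1 and 1.45 FPKM in TWT, with the widest error of the 40 genes (log2 −2.82, implied standard error 0.89, q = 0.0319 in the authors' deposited table). AT2G25220, of no named family, had 3.14 FPKM in fen1 and 4.99 FPKM in TWT (log2 −0.67 in the authors' deposited table). UCN (UNICORN), an AGC kinase that restrains growth in ovule integuments, had 8.68 FPKM in fen1 and 12.6 FPKM in TWT (log2 −0.53, q = 0.0294 in the authors' deposited table). AT4G01330, of no named family, had 11.6 FPKM in fen1 and 16.4 FPKM in TWT (log2 −0.50, q = 0.0279 in the authors' deposited table). OXI1 and UCN, both AGC kinases, thus moved in opposite directions. At a q under 0.01 none of the 4 falls was kept.

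All 3 calcium-linked kinases were higher, at very different levels. CPK22, a calcium-dependent protein kinase with calcium-binding EF hands, had 1.62 FPKM in fen1 and 0.29 FPKM in TWT. Its log2 change of 2.45 (implied standard error 0.65, q = 0.00830 in the authors' deposited table) was the largest rise of the 40 genes on the plain ratio, and its TWT level was the lowest of them. On the log2(FPKM + 1) scale TK1a (1.67) and OXI1 (1.27) lay above it. CIPK17 had 2.61 FPKM in fen1 and 1.24 FPKM in TWT (log2 1.08, implied standard error 0.40, q = 0.0235 in the authors' deposited table). CIPK14 (AT5G01820, listed as SR1) had 23.2 FPKM in fen1 and 16.0 FPKM in TWT (log2 0.53, implied standard error 0.21, q = 0.00830 in the authors' deposited table). On log2(FPKM + 1) the changes were 1.01 for CPK22, 0.69 for CIPK17 and 0.51 for CIPK14, in the same order.

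The 8 enzymes of small molecules were the most abundant class, with a median of 22.5 FPKM in fen1 and 14.9 FPKM in TWT, against 3.31 FPKM in fen1 and 3.36 FPKM in TWT for receptor-like genes. TK1a, a thymidine kinase that salvages thymidine for DNA synthesis, had 42.2 FPKM in fen1 and 12.6 FPKM in TWT. Its log2 change of 1.74 (implied standard error 0.22, q = 0.00173 in the authors' deposited table) was the largest rise among the 32 kinase genes with at least 1 FPKM in both genotypes. PCK2, a phosphoenolpyruvate carboxykinase of gluconeogenesis, had 1.15 FPKM in fen1 and 0.49 FPKM in TWT (log2 1.24, implied standard error 0.51, q = 0.0447 in the authors' deposited table). ACD5, known as a ceramide kinase that limits cell death, had 18.1 FPKM in fen1 and 11.2 FPKM in TWT (log2 0.69, q = 0.00173 in the authors' deposited table). AT5G51830, a sugar kinase of the pfkB family, had 27.9 FPKM in fen1 and 17.5 FPKM in TWT (log2 0.67, q = 0.00173 in the authors' deposited table). FMN/FHY, which makes flavin mononucleotide from riboflavin, had 27.03 FPKM in fen1 and 19.4 FPKM in TWT (log2 0.48, q = 0.0483 in the authors' deposited table), the q nearest to the threshold.

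Lower were 3 of these enzymes. AKN2, which makes the sulfate donor of sulfation reactions, was the most abundant of the 40 genes, with 103 FPKM in fen1 and 145 FPKM in TWT (log2 −0.49, implied standard error 0.20, q = 0.00717 in the authors' deposited table). UK/UPRT1, annotated for uridine salvage, had 12.2 FPKM in fen1 and 17.2 FPKM in TWT (log2 −0.49, q = 0.0302 in the authors' deposited table). AT3G49160, of the pyruvate kinase family, had 0.30 FPKM in fen1 and 2.27 FPKM in TWT (log2 −2.89, implied standard error 0.54, q = 0.00173 in the authors' deposited table). The authors' annotation describes this gene as lowered by paraquat, an agent of oxidative stress. AT4G31240, nucleoredoxin 2, holds the word kinase only through its zinc finger description. It had 4.16 FPKM in fen1 and 2.16 FPKM in TWT (log2 0.95, implied standard error 0.34, q = 0.00830 in the authors' deposited table).

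Well-known kinases of 9 pathway lists were mostly not listed as changed. Of 119 genes whose names matched the reference, 3 were called higher and 1 lower, which is 3.36%, beside 5.53% of all genes tested. None was called of 16 genes of the MAP kinase cascade, of 17 calcium-dependent and CBL-interacting kinases, of 9 receptor-like cytoplasmic kinases, of 9 wall-associated and related kinases or of 8 SnRK kinases. Of 15 immune receptor kinases and co-receptors IOS1 was called, of 19 cysteine-rich receptor-like kinases CRK10, and of 17 receptor kinases of growth and development ERL1 and ERL2, both higher. None of the 9 kinases chosen for DNA damage and cell division was called. That list is a selection, so this does not show that kinases of that kind were unchanged. The 2 genes that hold the word kinase but were set aside by the rule were also called. They are in none of the lists, so these counts do not cover them. The lists are short selections of each family, chosen with earlier results of these data known. Among the called genes that they leave out are CPK22, CIPK17, CIPK14, AT1G16260, EP1 and EMS1. ARSK1, whose closest annotated match RIPK is among the receptor-like cytoplasmic kinases, was called and is also left out. The counts and the share therefore describe the chosen genes and not the families. Beside 5.53% of all genes tested, lists of 8 to 17 genes are too short to tell none called from that share. Absence from the table does not tell an unchanged gene from one that was not testable.

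ERL1 and ERL2 carry a kinase domain, but their descriptions lack the word kinase. Including these, 4 listed genes with an annotated protein kinase domain lay outside the word search, and all 4 were higher. Any gene that the rule names for exclusion was left out of this count. ERL1, a receptor kinase of stomatal patterning, had 4.83 FPKM in fen1 and 2.35 FPKM in TWT (log2 1.04 in the authors' deposited table), and ERL2 had 8.88 FPKM in fen1 and 6.45 FPKM in TWT (log2 0.46 in the authors' deposited table). PERK13, described as root hair specific, had 4.06 FPKM in fen1 and 2.15 FPKM in TWT (log2 0.92 in the authors' deposited table). ORG1 had 118 FPKM in fen1 and 30.8 FPKM in TWT (log2 1.94 in the authors' deposited table), above every one of the 40 genes in fen1. Of the 28 genes among the 40 with an annotated domain, 16 were higher and 12 lower.

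Higher and lower genes differed in level, in counts that share the TWT value with the fold change. Of the 16 kinase genes at 10 FPKM or more in TWT, 7 were higher and 9 lower, and of the 24 below that level 16 were higher and 8 lower. Over all listed genes the same division gave 267 higher and 311 lower at 10 FPKM or more, and 417 higher and 119 lower below. All 5 receptor-like genes at 10 FPKM or more in TWT were lower. By the mean of both genotypes, 4 receptor-like genes reached 10 FPKM and all 4 were lower, whereas the 16 below had 10 higher and 6 lower. Over all listed genes 55.7% of those with a mean of at least 10 FPKM were higher, and 69.0% of those below, beside 62.5% of the receptor-like genes below. With 4 or 5 genes these receptor-like counts are descriptions. Of the 16 kinase genes at 10 FPKM or more in TWT, 1 (TK1a, 6.25%) changed at least 2-fold, and of the 24 below that level 14 did (58.3%). Over all listed genes the shares were 20.6% of 578 at 10 FPKM or more and 63.1% of 536 below, so the low-level kinase genes were close to the whole table. The implied standard errors were 0.20 to 0.24 at that level and 0.21 to 0.89 below it, and their part in the size of the listed changes was not tested.

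**Figure D2:**
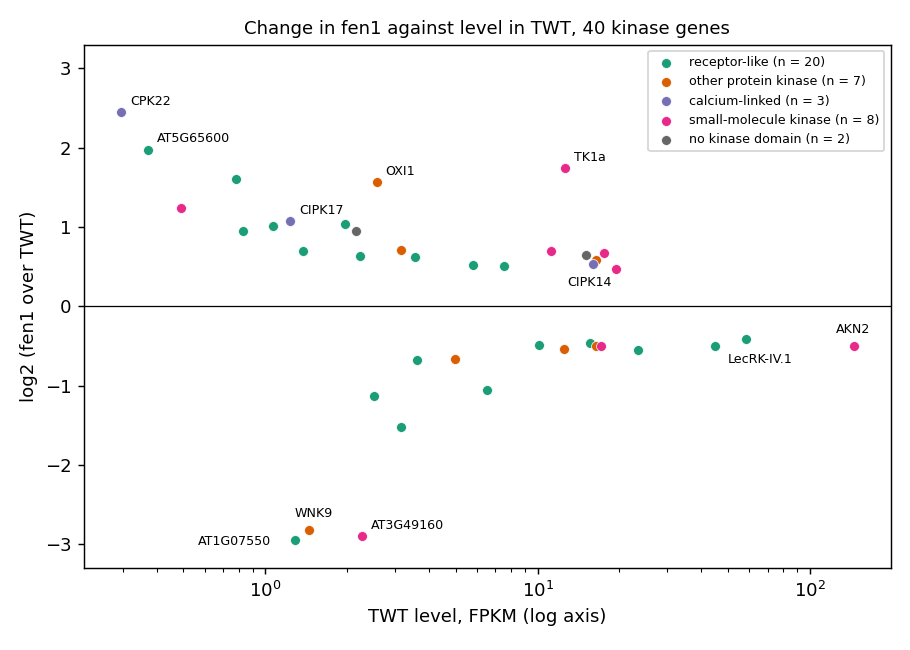
Each point is 1 of the 40 kinase genes, with its TWT level in FPKM (log axis) across and its log2 fold change of fen1 over TWT upwards, coloured by class. Large changes in both directions lie at low levels, TK1a is the exception at 12.6 FPKM in TWT, and the 5 receptor-like genes above 10 FPKM lie below 0.

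The classes were also compared by their TWT marks. H3K4me3 marks active gene starts, H3K27me3 is the mark of Polycomb silencing and H3K9me2 marks silent heterochromatin. A gene counted as marked if 1 bp or more of its body lay under a peak. H3K4me3 was on 20 of the 40 kinase genes (50.0%, exact 95% interval 33.8 to 66.2%), beside 53.8% of all listed genes. H3K27me3 was on 13 (32.5%, 18.6 to 49.1%), beside 37.0% of all listed genes, and H3K9me2 on 2 (5.00%, 0.61 to 16.9%), beside 2.78%. No peak was found on 9 (22.5%, 10.8 to 38.5%), beside 17.0% of all listed genes. All of these intervals include the share of the listed genes as a whole.

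Of the 8 small-molecule enzymes 7 carried H3K4me3 alone, and PCK2, the least abundant of them in TWT, carried H3K27me3 alone. The 20 receptor-like genes had 8 with H3K4me3, 8 with H3K27me3 and 6 with no peak. Of the 8 receptor-like genes with H3K4me3, 2 were higher (EMS1 and PERK9) and 6 lower, beside 53.4% higher of the 599 listed genes with H3K4me3. With H3K4me3 alone, 1 receptor-like gene was higher and 5 were lower. Of the 6 with no peak, 5 were higher (AT5G65600, AT1G51890, AT1G61440, IOS1 and AT3G24240) and AT1G07560 was lower. H3K27me3 was on 4 higher and 4 lower receptor-like genes, beside 66.0% higher of the 412 listed genes with H3K27me3. Over all listed genes the genes with H3K4me3 alone were higher in 51.7% of cases and those with no peak in 78.3%. The kinase genes with H3K4me3 alone were higher in 44.4% of 18 cases and those with no peak in 77.8% of 9 cases.

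Among the 7 other protein kinases, OXI1, AT4G18950, AT4G01330 and UCN carried H3K4me3 and were split evenly by direction. ARSK1, which was higher, and WNK9, which was lower, carried H3K27me3, and AT2G25220 carried no peak. The 3 calcium-linked kinases each had another state, H3K27me3 on CPK22, no peak on CIPK17 and H3K4me3 on CIPK14, from the lowest to the highest TWT level. Over the 40 genes the median TWT level was 16.2 FPKM for the 18 genes with H3K4me3 alone, 1.70 FPKM for the 10 with H3K27me3 alone and 2.16 FPKM for the 9 with no peak. Over all listed genes these medians were 19.2, 5.00 and 6.01 FPKM. AT3G46280 was the exception among genes with H3K27me3 alone, at 15.0 FPKM in TWT where the others reached at most 3.15 FPKM.

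**Figure D3:**
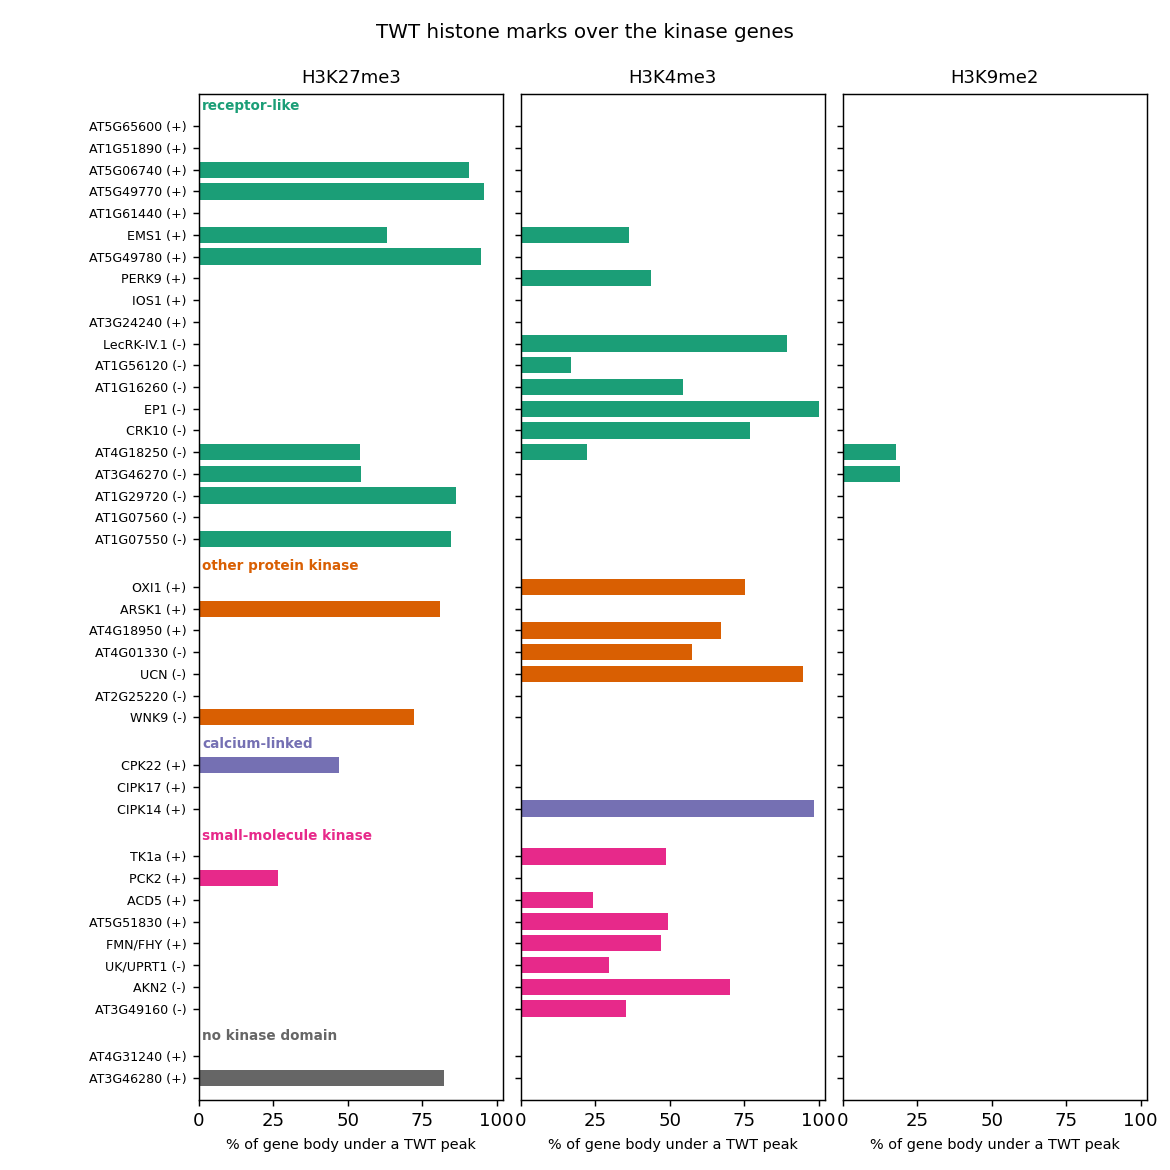
Bars give the percentage of each gene body that lies under a TWT peak of H3K27me3, H3K4me3 or H3K9me2, for the 40 kinase genes grouped by class. A plus sign after a name means higher in fen1 and a minus sign lower. H3K4me3 is on 7 of the 8 small-molecule enzymes and H3K9me2 on 2 receptor-like genes that were lower.

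The marks also differed in place. Counting every peak on a gene, H3K4me3 covered the annotated gene start in 17 of the 20 marked kinase genes, and the peak with the largest overlap had its centre at a median of 555 bp inside the gene. H3K27me3 covered the start in 8 of 13, with the centre of the largest-overlap peak at a median of 1560 bp inside. The gene bodies were long, with a median of 2984.5 bp for the kinase genes against 1786 bp for all listed genes. H3K27me3 covered a median of 81.1% of the body where it was present and H3K4me3 52.0%. The tandem genes AT5G49770 and AT5G49780, both higher, were covered by H3K27me3 over 95.9% and 94.6% of their bodies. The highest scores of H3K27me3 peaks among the 40 genes were theirs and that of AT3G46270. Scores here are the authors' own values from the peak caller, 809 for AT5G49770, 443 for AT3G46270 and 359 for AT5G49780, against a median of 125 over all 9239 H3K27me3 peaks. EMS1 carried H3K4me3 over its start (36.2% of the body) and H3K27me3 further in (63.1%), with a peak that did not reach the start. The H3K4me3 peak on AT1G56120 had a score of 52.6, near the lowest in its list (50.1), and covered 16.9% of the body. It ended at 20993069, just short of the annotated start at 20993072. On AT4G01330 the H3K4me3 peak began at 550392, close to the start at 550349. Neither peak counted as covering the start.

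H3K9me2 was found on 2 receptor-like genes, both lower, and on each it lay together with H3K27me3. On AT3G46270 the H3K9me2 peak covered 19.3% of the body, with its centre 1977.5 bp from the start. On AT4G18250 it covered 17.9%, with its centre 3863 bp from the start, and an H3K4me3 peak covered 22.2% of the body. Their scores of 176 and 62.6 were below the median of 235 over all 8051 H3K9me2 peaks. With such a cover neither gene would count as marked if a peak had to span 50% of the body.

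**Figure D4:**
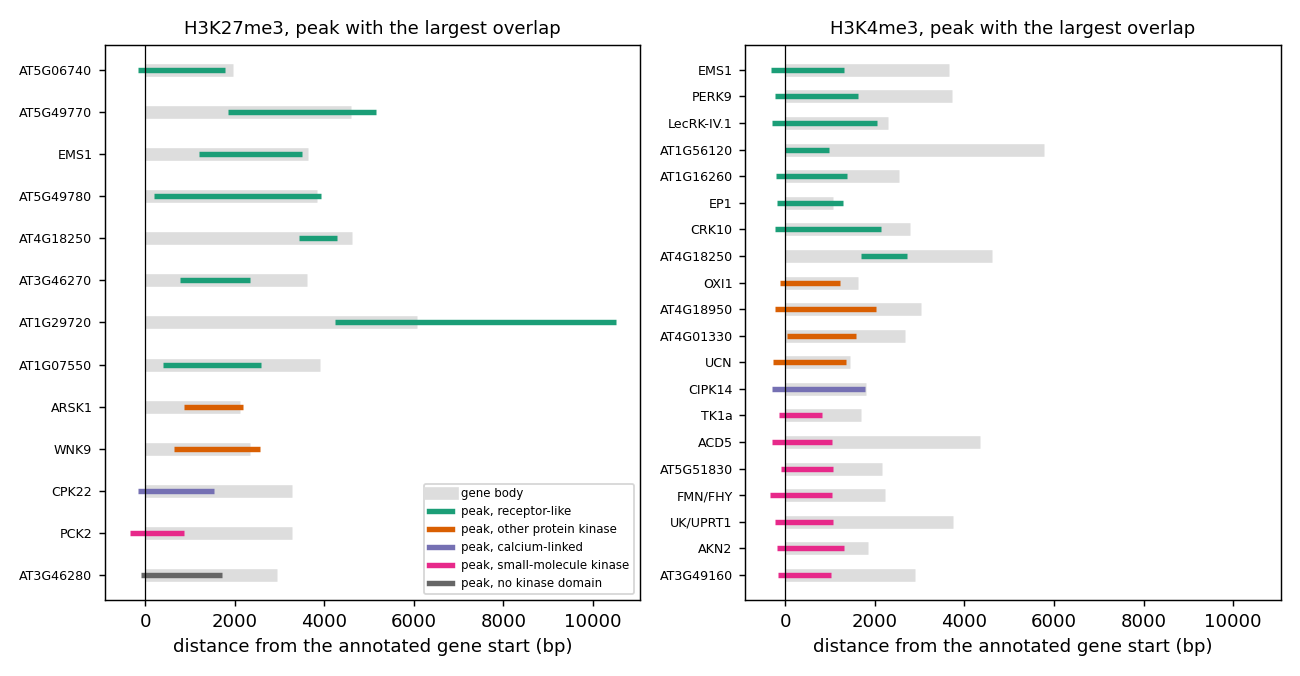
For each marked kinase gene the grey bar is the gene body from its annotated start (0 bp) and the coloured line the TWT peak with the largest overlap, H3K27me3 on the left and H3K4me3 on the right, coloured by class. Distances are in bp along the gene's own strand. Further peaks on the same gene are not drawn, so a start covered by another peak is not seen here. H3K4me3 peaks sit over the start in most genes, while several H3K27me3 peaks lie within or towards the end of the body, as in EMS1. The H3K27me3 peak on AT1G29720 runs past the gene end, with its centre at 7379.5 bp where the body is 6077 bp long.

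The annotation also says in how many plant structures a gene is expressed. Where it gave structures, the median was 9 for 19 higher and 19 for 13 lower kinase genes. Over all listed genes the medians were 11 for higher and 20 for lower genes. Among receptor-like genes the medians were 3 structures for 8 higher and 11.5 for 8 lower genes. Root was the only structure given for 4 receptor-like genes, of which AT5G06740 and AT3G24240 were higher and AT3G46270 and AT1G07560 lower. These counts come from the authors' annotation column and not from the seedlings sequenced here.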

How the data were processed

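RNA and ChIP libraries of fen1 and TWT seedlings were grouped by their titles. Per the submitters' processing notes, the tools were Cuffdiff 2.1.1, TopHat2 2.1.1, Bowtie 0.12.9 and SAMtools, and the build TAIR10, with no role or order given. The authors combined 2 libraries per genotype into 1 FPKM value; the header does not name this unit, which was read from the Cuffdiff layout. The authors' log2 values compare fen1 with TWT, without a pseudocount, and matched the FPKM ratio within 1.17e-05. Their deposited p-value has a floor of 5e-05, hence q of 0.00173 at the least. The deposited peak score is the authors' own; peak names point to MACS, with settings not given in the sources used here. Depth per library is unknown.

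No test of differential expression was added. Peaks were joined to gene bodies with pandas 2.3.3, exact Clopper-Pearson intervals came from scipy 1.17.1, and the overlap step was tested on simulated data. Gene names came from a TAIR10.1 reference table, which matched all 40 identifiers and gave a symbol for 19. The implied standard error is the log2 change divided by the authors' statistic, whose smallest absolute value among the 40 genes was 2.10. The authors' p-values do not follow a normal tail of that statistic. They lie below such a tail for some genes and above it for others, so the error does not restate the test. Classes were assigned by words of the description, with reference names for CIPK14 and PERK9. Up to 4 genes per class and direction were to be named, plus calcium-linked, adjacent, H3K9me2-marked, most abundant and pathway-list genes; the rest were named to account for every gene. Of 126 list entries, 7 were dropped because the name used here was not found for that gene in the reference. The genes, classes and lists were chosen with earlier results of these data known. No sequences were used here.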

Additional observations from a re-analysis of the deposited data

How the results depend on the processing

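No paired analysis was possible because the table holds 1 value per genotype, and leaving out a library could not be run for the same reason. With a q under 0.01 the counts were 14 higher and 6 lower kinase genes, 5 and 4 for receptor-like genes, and 0 lower for the other protein kinases. An unadjusted p under 0.05 from the authors' test holds for all 4 of those falls, but listing at a q under 0.05 already requires it. The median log2 changes at a q under 0.01 were 0.98 for higher and −1.09 for lower genes, and 2 of the 3 calcium-linked genes were kept. With at least 2-fold changes they were 9 higher and 6 lower, 4 and 4 for receptor-like genes, and 1 and 1 for the other protein kinases. Counting only peaks with a score at or above the median of their list, H3K27me3 was on 17.5% of the kinase genes, H3K4me3 on 20.0% and H3K9me2 on 0%. Requiring a peak to cover 50% of the body gave 25.0% for H3K4me3 and 0% for H3K9me2. The other alternatives, which were at least 1 FPKM in both genotypes, log2(FPKM + 1), 500 bp added on both sides and a narrower word search (29 genes), moved no count by more than 1.5 times. No direction was reversed, but none of these alternatives could reverse one. They select genes or peaks, or keep the order of the values of the 2 genotypes.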
